A study of Mus musculus with 12 samples.

Results

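Undifferentiated mouse embryonic stem cells (ESCs) without *Snap29* were compared with wild-type ESCs by RNA sequencing, in 3 KO and 3 WT libraries. All 6 were made from the J1 line, a male line of strain 129S4/SvJae, grown on gelatin in serum with leukemia inhibitory factor (LIF), and the KO cells differ by a CRISPR/Cas9 disruption of *Snap29* aimed at exon 2. Of the 55471 genes in the tables, 12319 (22.2%) had at least 1 FPKM (the fragment count of a gene scaled to its length and to the depth of the library) in at least 3 of these 6 libraries, and these are the members described here. The KO libraries come from 1 clone, so the spread between clones was not measured, and the study calls the 3 libraries of a group biological replicates without saying whether they are separate cultures, so the p values may measure technical spread only. The other 6 libraries of the study are WT and KO cells differentiated for 14 days, and they were used to ask which of the largest changes differed by day and in 1 alternative fit of all 4 groups.

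SNAP29 is a SNARE protein, one of the proteins whose helices zip together to pull a vesicle and its target membrane into contact until they fuse. It contributes a pair of helices (Qb and Qc), acts at several internal membranes, and with syntaxin 17 and VAMP8 joins autophagosomes to lysosomes. ESCs grown in serum with LIF are held in a pluripotent state by a network around Oct4, Sox2 and Nanog. Within it, naive factors such as Esrrb, Klf4 and Tfcp2l1 mark the cells closest to the early epiblast, formative and primed factors such as Otx2 mark cells moving towards differentiation, and a small fraction of cells passes through a state that resembles the 2-cell embryo and switches on Zscan4.

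The 6 libraries held 16874970 to 18303183 assigned fragments each. Across members, log2 levels of 2 libraries of the same group correlated at 0.980 to 0.982 and those of a WT and a KO library at 0.956 to 0.959, and WT and KO were separated along a first principal component that held 54.4% of the variance. The markers of ESCs were at high levels in both groups, with *Pou5f1* at 541 ± 13 FPKM for WT against 458 ± 26 FPKM for KO, *Zfp42* at 552 ± 31 FPKM for WT against 624 ± 28 FPKM for KO and *Dppa5a* at 1532 ± 39 FPKM for WT against 1875 ± 197 FPKM for KO (SD, n = 3). The most abundant members included *mt-Co1*, *Eef1a1*, *Rplp1*, *Hsp90ab1* and *Ptma*, genes of respiration, translation, protein folding and chromatin. The highest FPKM was that of the noncoding RNA *Gm23935*, whose length of 57 bases makes its FPKM large for its fragments. It had 13464 to 83922 fragments per WT library and 6202 to 16438 per KO library. Its WT values were 17303, 13692 and 79948 FPKM and its KO values 6198, 16518 and 15687 FPKM. The high value in WT replicate 3 moves values rescaled to a common sum of FPKM per library (TPM), where the median log2 change of members became 0.11 instead of −0.0031. In TPM a list median between −0.11 and 0 therefore turns positive, and counts in TPM are given beside each list below in which they changed the direction with more calls.

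*Snap29* measured 5.87, 6.59 and 5.51 FPKM across WT against 0.611, 0.415 and 0.657 FPKM across KO (log2 change −3.22 with an SE of 0.17, adjusted p = 9.14e-05). On average KO kept 9.37% of the WT level, and the 3 KO libraries lay below all WT libraries. *Snap29* reached 1 FPKM in WT only, so that order was required by the rule of 1 FPKM. *Snap29* lies on chromosome 16 (17405986 to 17430827 on the plus strand of mm10). Its start overlaps the start of *Pi4ka*, a lipid kinase gene read from the opposite strand that reaches to 17406314, and the sources used here do not say whether fragments were counted by strand. *Pi4ka* was 5.29 ± 0.19 FPKM for WT against 4.46 ± 0.42 FPKM for KO (log2 change −0.24 with an SE of 0.084, adjusted p = 0.0839). Of the 5 members on each side of *Snap29*, *Ube2l3*, a ubiquitin-conjugating enzyme, rose from 21.7 to 25.3 FPKM (log2 change 0.22, adjusted p = 0.0470), and *Hic2*, a transcriptional repressor, fell from 10.9 to 6.83 FPKM (log2 change −0.66, adjusted p = 0.00112). The other 8 did not pass the test, and the call of *Ube2l3* was lost when any library but WT replicate 1 was left out (adjusted p up to 0.137).

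A second gene was nearly absent from the KO clone. *Atrx*, the X-linked chromatin remodeller that loads histone H3.3 at heterochromatin and telomeres, measured 13.3, 12.7 and 11.9 FPKM across WT against 0.178, 0.132 and 0.156 FPKM across KO (log2 change −5.64 with an SE of 0.11, adjusted p = 7.01e-06), which is 1.23% of the WT mean. That level came from 50 to 68 fragments in each KO library, where WT had 4751 to 4991. Of the 5 members on each side of it on chromosome X, 9 did not pass the test, among them *Magt1* at 5.99 ± 0.50 FPKM for WT against 5.49 ± 0.32 FPKM for KO and *Pgk1* at 273 ± 8.7 FPKM for WT against 266 ± 20 FPKM for KO, and *Lpar4*, a lysophosphatidic acid receptor, fell (log2 change −1.59, adjusted p = 0.00293). Since both genes are low in every KO library, a difference between KO and WT cannot be told apart as one of *Snap29* or of *Atrx*.

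A member was called higher or lower when limma's test on log2(FPKM + 0.1) gave an adjusted p (Benjamini-Hochberg, over the 19238 genes tested) under 0.05. Adding 0.1 makes the log2 changes of low genes smaller than the ratio of their FPKM. In KO, 1785 members were higher (14.5%) and 1713 lower (13.9%), and over all genes tested the shares were 11.0% and 10.4%. Counts of each gene list below are to be read against the shares of 14.5% and 13.9%. With a change of at least 2-fold, 290 members were higher (2.35%) and 184 lower (1.49%), against 2.79% and 2.12% of all genes tested. In TPM the split was 1256 higher and 472 lower, and 383 and 146 with a change of at least 2-fold. WT and KO libraries did not overlap in 5873 members (47.7%, and 39.9% of all genes tested), of which 2951 were above WT and 2922 below. On the FPKM scale the middle of the distribution lay near 0, with the 25th percentile of the log2 changes at −0.17 and the 75th at 0.18. A member that reached 1 FPKM in one group only had to differ: 167 did so in KO and 146 in WT, and with those members left out 191 were higher and 111 lower by at least 2-fold. Several lists below hold such members, and the list counts and medians include them. At the edge of the rule, the third-highest library of *Lonrf2* was at 0.9997 FPKM and it was left out, and that of *Fam57b* was at 1.002 FPKM and it was kept. With 3 libraries a group, an exact two-sided permutation test of a single value cannot go below 0.1, so the test across all genes was used throughout.

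**Figure D1:**
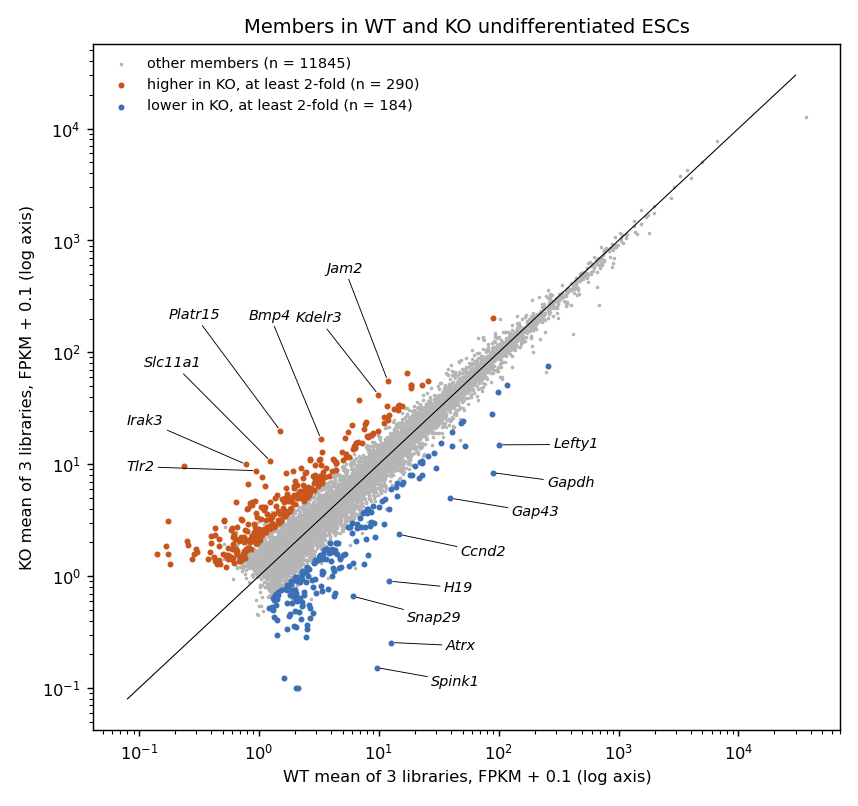
Mean FPKM + 0.1 of the 3 WT libraries (horizontal, log axis) against that of the 3 KO libraries (vertical, log axis) for the 12319 members, with the line of equal levels. The 290 members at least 2-fold higher in KO lie above the line and the 184 lower ones below it, with *Spink1*, *Atrx* and *Snap29* far below it.

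Most 2-cell-like members were higher in KO. Of 13 members of the list, 12 were higher in KO and 0 lower, with a median log2 change of 1.58 where all members together had −0.0031. The list includes Zscan4 copies, zinc finger genes of the 2-cell embryo that act on telomeres, and Usp17l copies, which encode deubiquitinases. Of its members, 8 reached 1 FPKM in KO only, so their KO libraries had to lie above WT, and the count and median include them. Of the 6 tested genes of the list below that level 3 were also higher, and the share over all such genes is not given here. The Zscan4 genes of mouse lie in a row on chromosome 7 and are near-identical, so fragments may be split between copies and the value of any single copy is uncertain. A stretch that ends at or within 34 bases of the RefSeq start of 4 of them is shown because these copies all rose (*Zscan4b* from 0.542 to 2.03 FPKM, log2 change 1.74, and the others below). The following 216 bases are from RefSeq (GRCm38.p6), 5′ to 3′ on the strand of the gene, with capitals at the 12 positions where the 4 copies are not all the same.
Zscan4b, chr7:10905051-10905266, minus strand: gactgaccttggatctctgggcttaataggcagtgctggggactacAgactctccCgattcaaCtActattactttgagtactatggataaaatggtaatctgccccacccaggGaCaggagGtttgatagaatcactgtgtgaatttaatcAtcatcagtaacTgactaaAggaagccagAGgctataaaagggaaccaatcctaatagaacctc
Zscan4c, chr7:11005506-11005721, plus strand: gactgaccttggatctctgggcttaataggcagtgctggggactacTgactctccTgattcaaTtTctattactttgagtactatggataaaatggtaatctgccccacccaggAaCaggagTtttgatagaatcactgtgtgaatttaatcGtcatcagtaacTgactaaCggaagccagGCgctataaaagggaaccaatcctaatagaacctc
Zscan4d, chr7:11166183-11166398, minus strand: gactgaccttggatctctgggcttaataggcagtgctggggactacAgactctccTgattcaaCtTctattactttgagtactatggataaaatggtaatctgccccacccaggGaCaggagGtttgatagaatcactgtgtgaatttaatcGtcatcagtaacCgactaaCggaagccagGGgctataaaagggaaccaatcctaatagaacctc
Zscan4f, chr7:11397699-11397914, plus strand: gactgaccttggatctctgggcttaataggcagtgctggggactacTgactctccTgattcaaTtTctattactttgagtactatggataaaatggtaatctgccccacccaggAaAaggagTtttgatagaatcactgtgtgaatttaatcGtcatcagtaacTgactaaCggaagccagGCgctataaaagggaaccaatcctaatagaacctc

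The windows of *Zscan4c* and *Zscan4f* share 215 of 216 bases, and the least similar pair, *Zscan4b* and *Zscan4f*, shares 205. Each holds the TATA-box sequence CTATAAAAG at the same place, beginning at base 185, and on either strand those letters are in 165 of 32851 RefSeq promoters of 300 bases (0.502%). *Zscan4d* measured 2.76, 2.47 and 2.51 FPKM across WT against 9.68, 11.97 and 11.5 FPKM across KO (log2 change 2.05 with an SE of 0.095, adjusted p = 6.03e-05), and *Zscan4c* measured 2.17, 2.42 and 2.15 FPKM across WT against 4.98, 5.74 and 6.12 FPKM across KO (log2 change 1.28). *Zscan4f* measured 1.34, 1.51 and 1.52 FPKM across WT against 3.95, 4.94 and 5.38 FPKM across KO (log2 change 1.63). In each of these copies the lowest KO library was above the highest WT library. The Usp17l copies were lower in WT, with *Usp17le* at 0.702, 0.963 and 0.683 FPKM, and rose to 4.42, 4.81 and 4.39 FPKM in KO (log2 change 2.41, adjusted p = 1.33e-04). *Usp17le*, *Usp17lb* and *Usp17la* reached 1 FPKM in KO only, so their KO libraries had to lie above WT. In a bulk library, more cells in this state and more RNA per cell cannot be told apart, and *Duxf3*, the gene in the list for the Dux factor of the 2-cell embryo, was listed at 0 in all 6 libraries.

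A run of neighbouring genes on chromosome 12 behaved in the same way. Windows of 1 Mb were looked at after the values were seen, and of 933 windows with at least 5 members 23 had at least 30% of them changed 2-fold or more. The extreme was the Zscan4 window on chromosome 7 (11000001 to 12000000, mm10), where 8 of 8 members rose 2-fold or more. It holds *Zscan4c*, *Zscan4d* and *Zscan4f*, described above, so it is not a separate observation. Members that reached 1 FPKM in KO only were not set apart in it. Between 87425840 and 88461724 on chromosome 12, 11 of 14 members in a row were higher, 10 of these at least 2-fold, and none was lower. The median log2 change was 1.63. *Gm4027* and *Gm1995* reached 1 FPKM in KO only, so their KO libraries had to lie above WT. *Gm48388* rested on 0 to 5 fragments per WT library and *Gm5788* on 4 to 10. *Gm8300* measured 1.68, 1.92 and 1.91 FPKM across WT against 8.30, 9.33 and 8.32 FPKM across KO (log2 change 2.18 with an SE of 0.085, adjusted p = 3.70e-05). *Gm5662* measured 2.50, 2.58 and 2.57 FPKM across WT against 10.7, 10.8 and 10.9 FPKM across KO (log2 change 2.04 with an SE of 0.052, adjusted p = 1.09e-05), and *Gm8332*, the most abundant of the Gm genes, 5.08, 7.995 and 9.61 FPKM across WT against 24.2, 22.6 and 22.01 FPKM across KO (log2 change 1.64 with an SE of 0.21, adjusted p = 0.00264). The genes that flank them did not pass the test: *Snw1* was 12.5 ± 0.71 FPKM for WT against 11.8 ± 0.65 FPKM for KO, *Alkbh1* 8.58 ± 0.80 FPKM for WT against 7.19 ± 0.53 FPKM for KO and *Adck1* 3.95 ± 0.33 FPKM for WT against 3.79 ± 0.21 FPKM for KO. Genes of this run carry only provisional names in the files, and whether they share fragments as copies of each other was not tested.

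**Figure D2:**
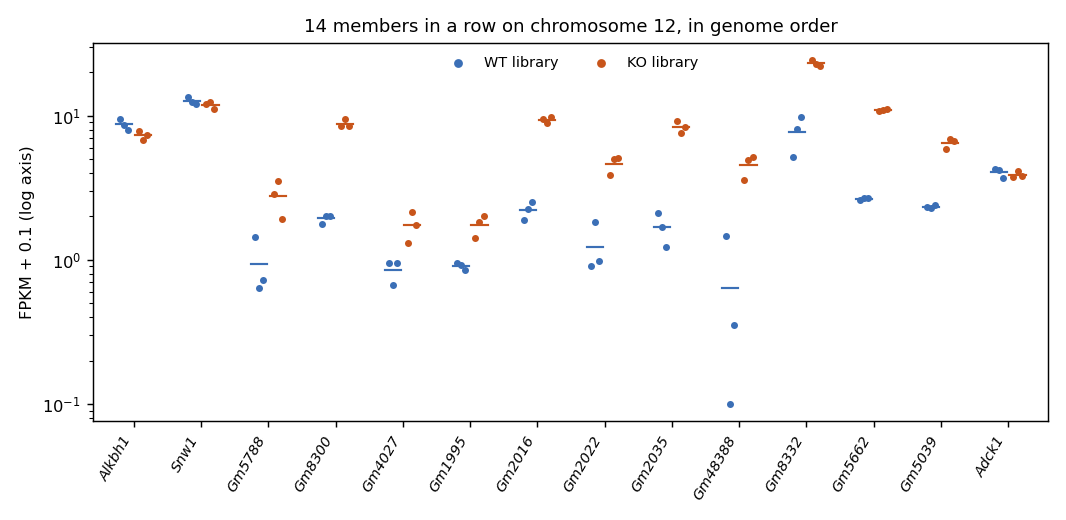
FPKM + 0.1 (log axis) of the 14 members in genome order between 87425840 and 88461724 of chromosome 12, with 1 point per library (WT left, KO right of each pair) and a line at each mean. The KO points lie above the WT points in the 11 Gm genes, as the rule of 1 FPKM required for *Gm4027* and *Gm1995*. The flanking *Alkbh1*, *Snw1* and *Adck1* are not higher.

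The 20 largest rises among annotated genes included genes of immune cells. *Tlr2*, a receptor for bacterial lipoproteins, measured 1.02, 0.654 and 0.883 FPKM across WT against 9.05, 8.91 and 8.02 FPKM across KO (log2 change 3.22 with an SE of 0.15, adjusted p = 6.22e-05), and *Irak3*, an inhibitor of the kinases below Toll-like receptors, 0.885, 0.631 and 0.532 FPKM across WT against 9.61, 9.58 and 10.4 FPKM across KO (log2 change 3.70 with an SE of 0.16, adjusted p = 5.31e-05). The third, *Slc11a1*, carries metal ions out of the lysosomes of phagocytes and measured 0.957, 1.30 and 1.19 FPKM across WT against 10.6, 11.1 and 10.01 FPKM across KO (log2 change 3.10 with an SE of 0.12, adjusted p = 3.02e-05). These 3 were at 1.30 FPKM or below in every WT library and at 8.02 FPKM or above in every KO library. *Irak3* reached 1 FPKM in KO only, so its KO libraries had to lie above WT. Of the 18 macrophage and blood cell markers, 13 stayed under 1 FPKM in all 6 libraries and *Adgre1*, *Lyz1*, *Lyz2* and *Tyrobp*, which define macrophages and monocytes, were listed at 0 in all 6. The list summed to 15.1 to 15.9 FPKM per WT library against 34.1 to 35.8 FPKM per KO library, and 2 of its 5 members, *Slc11a1* and *Tlr2* themselves, were higher and none lower (median 0.46). The other 3 members did not pass the test, *Laptm5* with 4.84 ± 0.49 FPKM for WT against 6.71 ± 1.2 FPKM for KO (adjusted p = 0.0551), and *Coro1a* and *Cd68* with adjusted p = 0.166 and 0.380 by limma. Of 26 members of the Toll-like receptor list, 7 were higher and 2 lower (median 0.055), and with any 1 library left out 3 to 5 higher and 2 lower. The kinase *Irak2* fell from 2.21 to 0.942 FPKM (log2 change −1.14 with an SE of 0.12, adjusted p = 0.00120), the adaptor *Traf3* fell from 6.09 to 4.17 FPKM (log2 change −0.54), and *Myd88*, the adaptor that Tlr2 binds, was 4.11 ± 0.68 FPKM for WT against 5.48 ± 0.27 FPKM for KO (adjusted p = 0.0574).

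Other large rises were in genes of signalling and the cell surface, of which *Kdelr3* and *Jam2* are outside the 20 largest. *Bmp4*, a growth factor that acts on ESCs through Id genes, measured 2.95, 2.91 and 3.72 FPKM across WT against 17.0, 16.9 and 16.3 FPKM across KO (log2 change 2.36 with an SE of 0.10, adjusted p = 4.47e-05). *Kdelr3*, a receptor that returns proteins from the Golgi to the endoplasmic reticulum, measured 9.43, 10.02 and 10.01 FPKM across WT against 41.4, 43.1 and 40.9 FPKM across KO (log2 change 2.08 with an SE of 0.043, adjusted p = 7.01e-06), and *Jam2*, a junctional adhesion molecule, 12.9, 11.8 and 10.7 FPKM across WT against 55.2, 52.6 and 58.4 FPKM across KO (log2 change 2.23 with an SE of 0.076, adjusted p = 2.67e-05). These genes were expressed in WT already, and the replicates of each group lay close together. *Platr15*, a noncoding RNA named for its link to pluripotency, measured 1.89, 1.36 and 0.990 FPKM across WT against 20.4, 18.0 and 20.9 FPKM across KO and *Klk1*, tissue kallikrein, 0.378, 0.915 and 0.857 FPKM across WT against 6.45, 7.71 and 5.57 FPKM across KO (log2 changes 3.76 and 3.10, adjusted p = 1.00e-04 and 7.90e-04). *Grin2c*, an NMDA receptor subunit, *Cd200*, a membrane glycoprotein, and *Bglap3*, a relative of osteocalcin, were near 0 in WT and at 1 to 2 FPKM in KO (log2 changes 3.48, 3.20 and 3.06). The rest of the 20 were *Catip*, *Nuggc*, *Shisal2b*, *Rgs20*, *Islr2*, *Usp17le*, *Ctag2l1*, *St8sia6*, *Sema7a*, *Usp17lb* and *Usp17la*, with log2 changes from 2.29 to 2.87. All of these but *Catip* and *Ctag2l1* reached 1 FPKM in KO only, as did *Klk1*, *Grin2c*, *Cd200* and *Bglap3*. Their KO libraries therefore had to lie above WT.

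The 20 largest falls among annotated genes opened with *Spink1*, a trypsin inhibitor, which measured 10.05, 10.5 and 8.12 FPKM across WT against 0, 0.157 and 0 FPKM across KO (log2 change −6.13 with an SE of 0.38, adjusted p = 1.48e-04). With KO at or near 0, that log2 change depends on the 0.1 that was added. *H19*, an imprinted noncoding RNA, measured 12.7, 12.1 and 11.8 FPKM across WT against 0.718, 0.931 and 0.760 FPKM across KO (log2 change −3.77 with an SE of 0.10, adjusted p = 1.30e-05), and *Lefty1*, a secreted inhibitor of Nodal, 101, 99.4 and 102 FPKM across WT against 16.7, 14.04 and 13.8 FPKM across KO (log2 change −2.76 with an SE of 0.074, adjusted p = 1.25e-05). In all 3 the groups were far apart. *Ccnd2*, cyclin D2, fell from 15.005, 14.7 and 14.4 FPKM to 2.41, 2.23 and 2.15 FPKM (log2 change −2.65 with an SE of 0.062, adjusted p = 9.38e-06). *Gap43*, a protein of axonal growth cones, fell from 42.1, 37.0 and 38.9 FPKM to 3.44, 6.39 and 4.798 FPKM (log2 change −3.03 with an SE of 0.20, adjusted p = 1.96e-04). Other falls were in *Actc1*, cardiac actin, *Pax6*, a regulator of eye and brain, *Sema3e*, a guidance factor, *Gna14*, a G protein subunit, *Car4*, a carbonic anhydrase, and *Magohb*, a subunit of the exon junction complex (log2 changes −3.70, −2.44, −2.92, −2.72, −2.26 and −2.43). *Mup6*, *R3hdml*, *Atp10a*, *Il3ra*, *Ripply1* and *Pkdcc* completed the 20 with log2 changes from −2.64 to −2.28, and *Mup6* belongs to a family of near-identical genes, so its value is uncertain. Of these falls, *Spink1*, *H19*, *Actc1*, *Pax6*, *Sema3e*, *Gna14*, *Car4*, *Mup6*, *Atp10a*, *Il3ra* and *Pkdcc* reached 1 FPKM in WT only. Their KO libraries therefore had to lie below WT.

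*Gapdh*, a glycolytic enzyme that is often used to normalise measurements, was among them. It measured 138, 61.6 and 68.5 FPKM across WT against 5.90, 9.604 and 9.43 FPKM across KO (log2 change −3.35 with an SE of 0.33, adjusted p = 8.64e-04), with WT replicate 1 apart from the other WT libraries. Mouse *Gapdh* has many near-identical pseudogenes among which fragments can be split or dropped, so its value is uncertain. Of 18 members of the housekeeping list, 2 were higher and 4 lower (median −0.024, in TPM 2 higher and 2 lower). *Actb* fell from 894 to 633 FPKM (log2 change −0.50 with an SE of 0.068, adjusted p = 0.00324), while *Hprt* was 123 ± 2.6 FPKM for WT against 131 ± 9.5 FPKM for KO and *Tbp* 4.82 ± 0.23 FPKM for WT against 4.86 ± 0.050 FPKM for KO (adjusted p = 0.378 and 0.908). *Eno1*, the enolase of the same pathway, fell from 372 to 273 FPKM, *Pfkp* rose from 11.2 to 21.1 FPKM and *Hk1* rose from 5.81 to 10.4 FPKM (log2 changes −0.45, 0.91 and 0.84). Of 38 glycolytic and hypoxia-responsive members, 10 were higher and 6 lower (median 0.04), and with any 1 library left out 6 to 8 higher and 4 to 6 lower.

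**Figure D3:**
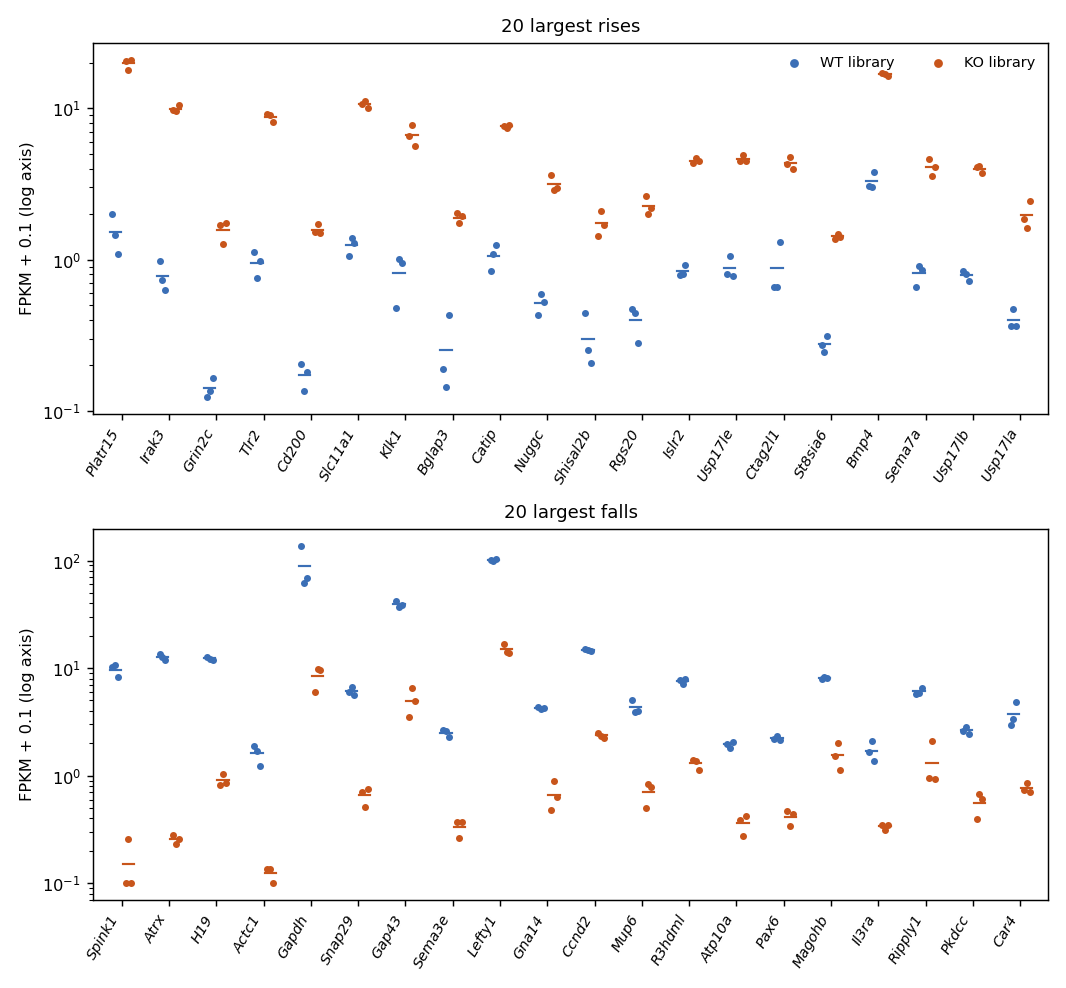
FPKM + 0.1 (log axis) per library of the 20 largest rises (top) and 20 largest falls (bottom) among annotated members, with WT points left and KO points right of each pair and a line at each mean. In all 40 genes the 3 KO points lie on one side of the 3 WT points, which was a condition of their choice. Most also reached 1 FPKM in one group only and so had to differ. The exceptions are the rises *Platr15*, *Tlr2*, *Slc11a1*, *Catip*, *Ctag2l1* and *Bmp4* and the falls *Gapdh*, *Gap43*, *Lefty1*, *Ccnd2*, *R3hdml*, *Magohb* and *Ripply1*. The WT points of *Gapdh* and *Bglap3* are among the most widely spread.

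Most naive members that changed were higher, and most formative and primed members that changed were lower. Of 17 naive members, 9 were higher (52.9%) and 2 lower (11.8%, median 0.25), where 14.5% and 13.9% of all members were. *Esrrb*, a nuclear receptor, measured 68.3, 65.98 and 65.5 FPKM across WT against 134, 135 and 131 FPKM across KO (log2 change 1.00 with an SE of 0.036, adjusted p = 3.02e-05), and *Tfcp2l1*, a factor downstream of LIF, 24.2, 22.7 and 22.1 FPKM across WT against 49.99, 49.8 and 52.6 FPKM across KO (log2 change 1.14 with an SE of 0.047, adjusted p = 4.60e-05). *Klf5* rose from 25.2 to 42.9 FPKM and *Tbx3* rose from 13.8 to 22.8 FPKM (log2 changes 0.77 and 0.72). The 2 naive members that fell were *Klf2*, from 99.2, 98.9 and 112 FPKM to 60.9, 58.1 and 61.0 FPKM (log2 change −0.78 with an SE of 0.057, adjusted p = 2.80e-04), and *Dppa3*, which protects maternal methylation marks in the egg, from 4.50, 3.70 and 3.65 FPKM to 0.702, 0.899 and 1.08 FPKM (log2 change −2.04 with an SE of 0.17, adjusted p = 4.26e-04). Of 14 formative and primed members, 9 were lower (64.3%) and 2 higher (14.3%, median −0.53). *Dnmt3l*, a cofactor of the de novo DNA methyltransferases, measured 52.9, 48.7 and 54.1 FPKM across WT against 13.6, 17.1 and 12.9 FPKM across KO (log2 change −1.84 with an SE of 0.11, adjusted p = 1.22e-04), and *Otx2* 6.91, 7.46 and 6.998 FPKM across WT against 3.97, 4.17 and 3.27 FPKM across KO (log2 change −0.89 with an SE of 0.10, adjusted p = 0.00131). *Sall2* fell from 4.66 to 1.36 FPKM and *Zic2* fell from 9.18 to 4.64 FPKM (log2 changes −1.72 and −0.97), while the Ets factor *Etv4* rose from 46.6 to 67.3 FPKM (log2 change 0.53).

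Core pluripotency factors changed by small amounts. Of 17 members, 10 were lower and 2 higher (median −0.21, in TPM 1 higher and 1 lower), against shares of 13.9% lower and 14.5% higher over all members. The largest fall was in *Lin28a*, which blocks the maturation of let-7 microRNAs, with 104, 103 and 111 FPKM across WT against 57.4, 60.4 and 55.6 FPKM across KO (log2 change −0.87 with an SE of 0.048, adjusted p = 1.04e-04). *Sall4*, a zinc finger factor, fell from 36.3 to 26.8 FPKM (log2 change −0.43). *Nanog* and *Tdgf1* were the ones that rose (log2 changes 0.26 and 0.22). The call of *Tdgf1* was lost without KO replicate 1 or any 1 WT library, and that of *Pou5f1* without any library but KO replicate 2 (adjusted p up to 0.117 and 0.107). With any 1 library left out the counts were 1 to 3 higher and 6 to 11 lower.

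**Figure D4:**
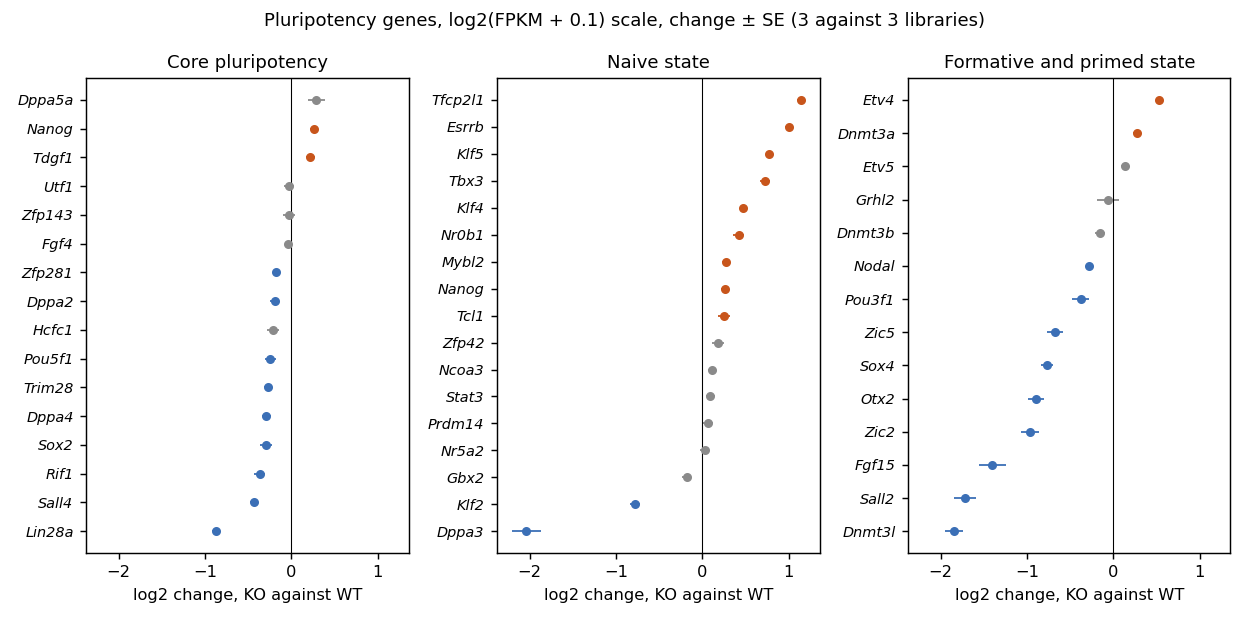
Log2 change of KO against WT (horizontal, on the log2(FPKM + 0.1) scale) with its SE for members of the core, naive and formative or primed lists, coloured where the adjusted p was under 0.05 (orange higher, blue lower), with 1 core member not drawn. Naive factors lie mostly to the right with *Klf2* and *Dppa3* as exceptions, and formative genes mostly to the left with *Etv4* and *Dnmt3a* as exceptions.

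Genes of the FGF and ERK pathway fell more often than they rose. Of 21 members of the FGF and ERK list, 10 were lower (47.6%) and 2 higher (9.52%, median −0.31), and in TPM 5 lower and 2 higher. Over all members 13.9% were lower and 14.5% higher. Among ligands, *Fgf17* fell from 33.9, 31.6 and 32.6 FPKM to 14.8, 16.1 and 15.4 FPKM (log2 change −1.08 with an SE of 0.048, adjusted p = 5.43e-05), and *Fgf4*, the main FGF of ESCs, was 52.1 ± 0.54 FPKM for WT against 50.7 ± 1.9 FPKM for KO (adjusted p = 0.532). The receptor *Fgfr1* fell from 14.4 to 8.70 FPKM (log2 change −0.72 with an SE of 0.058, adjusted p = 4.05e-04). Among genes that ERK switches on, the phosphatase *Dusp4* fell from 12.8, 10.5 and 12.7 FPKM to 4.18, 3.87 and 3.72 FPKM (log2 change −1.58 with an SE of 0.092, adjusted p = 1.25e-04) and *Egr1* fell from 7.37 to 3.64 FPKM (log2 change −0.99). The feedback inhibitors *Spry2*, *Spred1* and *Dusp5* fell by less (log2 changes −0.41, −0.34 and −0.57), and others did not pass the test, with *Dusp6* at 26.3 ± 1.7 FPKM for WT against 28.1 ± 0.85 FPKM for KO and *Spry4* at 24.3 ± 1.8 FPKM for WT against 25.8 ± 0.29 FPKM for KO.

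Nodal pathway genes fell and rose, with 5 of 20 higher and 7 lower (median 0.068, in TPM 3 higher and 3 lower, and with any 1 library left out 3 to 6 higher and 5 to 7 lower). *Gdf3*, a ligand related to Nodal, fell from 43.0, 42.0 and 37.2 FPKM to 13.8, 15.5 and 14.1 FPKM (log2 change −1.48 with an SE of 0.07, adjusted p = 6.22e-05). *Nodal* itself fell from 20.3 to 16.7 FPKM and *Inhbb*, an activin subunit, rose from 37.2 to 64.0 FPKM (log2 changes −0.28 and 0.78). *Lefty2*, next to *Lefty1* on chromosome 1 and related to it, was 18.5 ± 0.86 FPKM for WT against 15.1 ± 0.85 FPKM for KO (log2 change −0.29, adjusted p = 0.0138), and its call was lost without KO replicate 1 (adjusted p = 0.0502). Of 13 BMP members, 7 were higher (53.8%) and 2 lower (15.4%), where 14.5% and 13.9% of all members were. The median was 0.26, and with any 1 library left out 4 to 6 were higher and 2 lower. Among the targets of BMP, *Id1* rose from 51.6 to 68.4 FPKM (log2 change 0.41) and *Id2* and *Smad6* fell (log2 changes −1.51 and −0.94).

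*Ptch1*, the Hedgehog receptor and a target of the pathway, measured 10.8, 10.9 and 11.3 FPKM across WT against 2.74, 2.47 and 3.31 FPKM across KO (log2 change −1.92 with an SE of 0.10, adjusted p = 9.86e-05). *Gli1* fell from 14.8 to 7.40 FPKM (log2 change −0.99) and *Smo* rose from 7.91 to 9.38 FPKM (log2 change 0.24). Of 10 members of the Hedgehog list, 1 was higher and 3 were lower (median −0.15). Wnt genes had 6 of 27 members higher and 6 lower (median 0.063, in TPM 6 higher and 4 lower). The receptor *Fzd7* fell from 23.03 to 10.6 FPKM and the receptor *Ror2* rose from 1.57 to 4.64 FPKM (log2 changes −1.11 and 1.52), and the target *Axin2* rose from 1.40 to 2.70 FPKM (log2 change 0.91). In the LIF and STAT3 list 5 of 20 were higher and 2 lower (median −0.01, in TPM 0 higher and 1 lower), with any 1 library left out 1 to 3 higher and 2 to 3 lower, and the target *Socs3* was 73.4 ± 3.9 FPKM for WT against 75.2 ± 2.2 FPKM for KO (adjusted p = 0.670). The retinoic acid list had 3 of 11 higher and 4 lower (median −0.049, in TPM 4 higher and 1 lower), with the receptor *Rxra* rising from 3.19 to 5.04 FPKM and *Rarg* falling from 35.1 to 26.5 FPKM (log2 changes 0.64 and −0.40).

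Imprinted genes, read from only one parental copy in many tissues, fell more often than they rose. Of 36 members, 15 were lower (41.7%) and 3 higher (8.33%, median −0.15), where 13.9% and 14.5% of all members were. With any 1 library left out 1 to 3 were higher and 13 to 15 lower, and in TPM 13 were lower and none higher. Of the 36, 5 reached 1 FPKM in only WT or only KO and so had to differ, *H19* among them. The imprinted members lie on several chromosomes. *Phlda2*, a growth inhibitor of the placenta, measured 84.4, 90.7 and 87.6 FPKM across WT against 28.6, 27.9 and 28.5 FPKM across KO (log2 change −1.62 with an SE of 0.039, adjusted p = 9.38e-06), and *Cdkn1c*, a CDK inhibitor of the same domain of chromosome 7, 5.02, 6.11 and 5.65 FPKM across WT against 0.922, 1.43 and 1.06 FPKM across KO (log2 change −2.22 with an SE of 0.16, adjusted p = 2.97e-04). *Peg3*, a zinc finger gene, measured 6.75, 6.36 and 5.96 FPKM across WT against 1.97, 1.85 and 2.05 FPKM across KO (log2 change −1.65 with an SE of 0.08, adjusted p = 6.59e-05). These fell whether the maternal copy (*Phlda2*, *Cdkn1c*, *H19*) or the paternal copy (*Peg3*) is the one usually read. *Snrpn* and *Impact* fell as well, from 41.2 to 22.1 FPKM and from 36.1 to 21.5 FPKM (log2 changes −0.90 and −0.75). The members that rose, *Gab1*, *Zrsr1* and *Slc38a4*, had log2 changes under 0.3, and the calls of *Zrsr1* and *Slc38a4* were lost without KO replicate 2 or 3 or WT replicate 2 or 3 (adjusted p up to 0.0701 and 0.0727). *Igf2*, which shares a control region with *H19*, was under 0.1 FPKM in both groups on average.

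Enzymes that write and read DNA methylation had 3 of 20 members higher and 4 lower (median 0.046, in TPM 3 higher and 2 lower). The maintenance enzyme *Dnmt1* was 50.6 ± 1.7 FPKM for WT against 47.7 ± 0.79 FPKM for KO (adjusted p = 0.178), *Zfp57*, which protects imprints, rose from 66.05 to 97.9 FPKM, *Tet2*, an enzyme that oxidises methylcytosine, rose from 9.09 to 12.9 FPKM and *Gadd45a* fell from 25.5 to 11.8 FPKM (log2 changes 0.57, 0.50 and −1.104). In the list of *Atrx*, its partners and other heterochromatin proteins, 9 of 34 were lower, *Atrx* included, and 4 higher (median −0.094, in TPM 1 higher and 1 lower), and with any 1 library left out 3 to 4 higher and 4 to 7 lower. *Daxx*, the partner that carries H3.3 with Atrx, was 32.2 ± 1.4 FPKM for WT against 28.2 ± 1.1 FPKM for KO (log2 change −0.19, adjusted p = 0.0341, lost without WT or KO replicate 1 or 3 with adjusted p up to 0.103), and the heterochromatin protein *Cbx1* fell from 61.0 to 45.7 FPKM (log2 change −0.42). Of 31 Polycomb members, 9 were lower and 4 higher (median −0.11, in TPM 3 higher and 2 lower). The X-linked corepressor *Bcor* fell from 7.98 to 3.92 FPKM and *Phc1* fell from 99.3 to 68.5 FPKM, while *Suz12* rose from 37.2 to 47.6 FPKM (log2 changes −1.01, −0.54 and 0.36). Polycomb counts with any 1 library left out were 2 to 3 higher and 7 to 9 lower. Among 8 histone members, of which poly(A) selection captures mainly the replication-independent ones, 4 were higher and 0 lower (median 0.31), and with any 1 library left out 1 to 3 higher and 0 to 2 lower.

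Of 3 members on the Y chromosome, 2 were higher in KO. Of these, *Ddx3y* reached 1 FPKM in KO only, so its KO libraries had to lie above WT. *Eif2s3y*, a translation factor subunit, measured 2.15, 2.49 and 2.01 FPKM across WT against 6.94, 8.08 and 7.38 FPKM across KO (log2 change 1.71 with an SE of 0.10, adjusted p = 1.33e-04), and *Ddx3y*, an RNA helicase, 0.503, 0.546 and 0.418 FPKM across WT against 2.45, 2.69 and 2.31 FPKM across KO (log2 change 2.14 with an SE of 0.14, adjusted p = 1.98e-04). Both were lower in every WT library than in any KO library, the third, the predicted gene *Gm47283*, fell from 3.27 to 1.33 FPKM (log2 change −1.18, lost without KO replicate 2 or 3 or WT replicate 2 with adjusted p up to 0.0821), and *Uty*, which did not reach 1 FPKM, had a log2 change of 1.48 (adjusted p = 0.00339). The X-linked partner of the first, *Eif2s3x*, rose from 73.6 to 136 FPKM (log2 change 0.88 with an SE of 0.057, adjusted p = 1.75e-04), and that of the second, *Ddx3x*, was 155 ± 5.6 FPKM for WT against 143 ± 4.1 FPKM for KO (adjusted p = 0.105). Of 8 members in the list of X-linked partners, 2 were higher and 1 lower (median −0.051). How many cells carried a Y chromosome was not tested. Among autosomes and X, chromosome medians lay from −0.036 (chromosome 10) to 0.041 (chromosome 13) around the median of all members, where the SD of such a median between replicates was 0.0078.

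Lists of membrane traffic, the process in which SNAP29 works, had shares of calls close to or below those over all members (14.5% higher and 13.9% lower), with 9.09% higher and 15.9% lower among SNARE genes and 14.6% and 8.33% among autophagy genes. In the SNARE list 4 of 44 members were higher and 7 lower (median −0.029, in TPM 1 higher and 1 lower), *Snap29* included, and with any 1 library left out 2 to 3 higher and 3 to 6 lower. *Stx17*, its partner on autophagosomes, rose from 1.62 to 2.22 FPKM (log2 change 0.44 with an SE of 0.092, adjusted p = 0.0172), a call lost without KO replicate 2 or 3 or WT replicate 1 or 2 (adjusted p up to 0.0560). *Stx3* fell from 8.003 to 5.77 FPKM (log2 change −0.46), and *Snap47*, a relative of Snap29, was 36.4 ± 1.8 FPKM for WT against 39.3 ± 1.7 FPKM for KO (adjusted p = 0.178). Autophagy genes had 7 of 48 higher and 4 lower (median −0.041, and with any 1 library left out 4 to 6 higher and 1 to 3 lower). *Gabarapl2*, an Atg8 protein of the autophagosome membrane, measured 39.7, 37.3 and 36.6 FPKM across WT against 61.1, 63.5 and 62.4 FPKM across KO (log2 change 0.72 with an SE of 0.043, adjusted p = 1.41e-04), and *Map1lc3b*, which encodes LC3B, rose from 18.4 to 22.1 FPKM (log2 change 0.26).

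Lysosomal genes had 8 of 47 members higher (17.02%) and 6 lower (12.8%), close to the shares over all members (median −0.023, and with any 1 library left out 6 to 7 higher and 2 to 6 lower). The regulators of lysosome genes *Tfe3* and *Tfeb* fell, *Tfe3* from 10.3, 10.4 and 9.98 FPKM to 5.70, 5.42 and 5.70 FPKM (log2 change −0.86 with an SE of 0.049, adjusted p = 1.21e-04) and *Tfeb* from 7.08 to 5.59 FPKM (log2 change −0.33, lost without KO replicate 1 with adjusted p = 0.0522), while the proteases and hydrolases *Ctsb* and *Asah1* rose (log2 changes 0.54 and 0.40). Of 18 subunits of the proton pump, 3 were higher and 0 lower (median 0.014), led by *Atp6v0a4* (from 0.460 to 1.42 FPKM, log2 change 1.44). Of the 18, 1 reached 1 FPKM in one group only and so had to differ. The COPI, COPII and Golgi list had 6 of 42 higher (14.3%) and 3 lower (7.14%, median 0.051, and with any 1 library left out 1 to 6 higher and 2 to 3 lower), and beside *Kdelr3* no member changed by 2-fold. Rab GTPases had 6 of 39 higher (15.4%) and 5 lower (12.8%, median 0.025, and with any 1 library left out 3 to 5 higher and 3 to 5 lower). *Rab1a* rose from 65.3 to 81.1 FPKM and *Rab4a* fell from 34.7 to 26.8 FPKM (log2 changes 0.31 and −0.37).

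Cholesterol synthesis and uptake genes had 17 of 30 members higher and 1 lower (median 0.23), where 14.5% of all members were higher, and with any 1 library left out 11 to 14 higher and 0 to 1 lower. Enzymes of the pathway were among them. *Hmgcs1*, at its entry, measured 38.7, 39.1 and 38.5 FPKM across WT against 50.8, 55.3 and 50.9 FPKM across KO (log2 change 0.43 with an SE of 0.044, adjusted p = 9.80e-04), and *Sqle*, squalene epoxidase, 21.8, 20.5 and 21.9 FPKM across WT against 30.4, 32.5 and 30.7 FPKM across KO (log2 change 0.54 with an SE of 0.046, adjusted p = 4.81e-04). *Msmo1* rose from 18.9 to 29.7 FPKM and *Cyp51* rose from 15.3 to 20.4 FPKM (log2 changes 0.65 and 0.41). The SREBP partner *Insig1* rose from 26.6 to 33.9 FPKM (log2 change 0.35). With all 4 groups in 1 fit 5 members were higher, and *Hmgcs1*, *Sqle*, *Cyp51* and *Insig1* lost their call. *Abca1*, which exports cholesterol and is not part of its synthesis, had the largest change of the list (from 1.51 to 4.46 FPKM, log2 change 1.504 with an SE of 0.087, adjusted p = 1.22e-04).

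Iron genes had 6 of 21 members higher and 5 lower (median 0.063). The transferrin receptor *Tfrc* rose from 40.5 to 62.4 FPKM (log2 change 0.62 with an SE of 0.047, adjusted p = 3.35e-04), transferrin itself, *Trf*, rose from 2.32 to 5.51 FPKM (log2 change 1.21) and heme oxygenase *Hmox1* fell from 72.9 to 45.3 FPKM (log2 change −0.69), while the ferritin chains *Fth1* and *Ftl1* did not pass the test. The nuclear-encoded respiratory chain list had 15 of 80 higher and 5 lower (median 0.065), with any 1 library left out 7 to 18 higher and 2 to 8 lower. *Cox7a1* rose from 10.9 to 23.4 FPKM and *Cox7c* fell from 242 to 153 FPKM (log2 changes 1.09 and −0.67). All 13 protein-coding genes of the mitochondrial genome missed the threshold in limma's test, with 2 at an unadjusted p under 0.05 and a median of 0.17, and with voom on the recovered fragments 6 were higher.

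Cytosolic ribosomal proteins had 15 of 83 members lower and 1 higher (median −0.12). This count was unstable: with any 1 library left out 0 to 1 higher and 6 to 36 lower, and in TPM 5 lower. *Rps29* fell from 656 to 383 FPKM and *Rpl10l*, a copy used in the testis, fell from 27.8 to 14.7 FPKM (log2 changes −0.77 and −0.91), and ribosomal protein genes have many near-identical pseudogenes, so single values are uncertain. Proteasome subunits had 3 of 40 higher and 2 lower (median 0.025, and with any 1 library left out 1 to 3 higher and 1 to 3 lower), led by the activator *Psme4* (from 26.6 to 39.9 FPKM, log2 change 0.58).

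Of 32 members of the G1 list, 12 were lower (37.5%) and 6 higher (18.8%), where 13.9% and 14.5% of all members were. The median was −0.11, and in TPM it was 0.0087 with 7 lower. *Mycn*, the most abundant Myc gene, measured 96.4, 98.0 and 101 FPKM across WT against 44.5, 43.7 and 43.8 FPKM across KO (log2 change −1.16 with an SE of 0.036, adjusted p = 1.87e-05). *Mycl* fell from 4.82 to 2.66 FPKM (log2 change −0.84) and *Myc* was 16.2 ± 1.2 FPKM for WT against 16.5 ± 0.79 FPKM for KO (adjusted p = 0.789). *Ccnd1* fell from 34.8 to 21.9 FPKM beside *Ccnd2*, and *Ccnd3* rose from 29.9 to 39.5 FPKM (log2 changes −0.66 and 0.40). *E2f2* rose from 2.36 to 5.38 FPKM (log2 change 1.15) and *Cdk4* was 137 ± 0.85 FPKM for WT against 132 ± 6.0 FPKM for KO (adjusted p = 0.389). In the replication and mitosis list 5 of 57 were higher and 5 lower (median 0.039, in TPM 1 higher and 0 lower, with any 1 library left out 2 to 4 higher and 3 to 6 lower, and with voom 17 and 6).

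Of 30 members of the p53 list, 9 were lower (30%, where 13.9% of all members were) and 5 higher (16.7%, where 14.5% of all members were, median −0.089, and with any 1 library left out 2 to 3 higher and 7 to 8 lower). *Trp53* fell from 159 to 135 FPKM (log2 change −0.24), *Sesn1* rose from 5.19 to 12.3 FPKM (log2 change 1.23 with an SE of 0.057, adjusted p = 6.03e-05), and the death genes *Pmaip1* and *Bbc3* went opposite ways (log2 changes 0.79 and −0.66). In the ER stress and ATF4 list 7 of 40 were higher (17.5%) and 8 lower (20%, median −0.032, in TPM 6 higher and 4 lower, and with any 1 library left out 4 to 6 higher and 5 to 7 lower). *Atf4* rose from 82.0 to 119.9 FPKM and *Cth*, an enzyme of cysteine synthesis, fell from 23.8 to 12.2 FPKM (log2 changes 0.55 and −0.96), while the chaperone *Hspa5* was 121 ± 3.0 FPKM for WT against 113 ± 3.5 FPKM for KO (adjusted p = 0.128). Immediate-early genes had 5 of 15 higher and 3 lower (median 0.073, in TPM 0 higher and 1 lower), and with any 1 library left out 0 to 2 higher and 2 to 3 lower. Interferon and antigen presentation genes had 4 of 22 higher and 5 lower (median 0.08, and with any 1 library left out 2 to 3 higher and 3 to 4 lower), with *Ifitm1* falling from 118 to 51.1 FPKM (log2 change −1.21 with an SE of 0.062, adjusted p = 8.85e-05) and its neighbour *Ifitm3* rising from 78.1 to 105 FPKM (log2 change 0.42).

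At the cell surface, 11 of 35 junction and adhesion members were higher and 11 lower (median 0.053, in TPM 8 higher and 2 lower, and with any 1 library left out 7 to 9 higher and 9 to 10 lower). Beside *Jam2*, the gap junction gene *Gjb5* rose from 8.97 to 18.0 FPKM, and the claudin *Cldn6* and the connexin *Gja1* fell (log2 changes 0.99, −0.94 and −1.14). E-cadherin, *Cdh1*, fell from 129 to 111 FPKM (log2 change −0.21). Among Eph receptors and ephrins, 1 of 12 was higher and 3 were lower (median −0.15, in TPM 1 higher and 1 lower, and with any 1 library left out 1 higher and 1 to 4 lower). Of the 12, 2 reached 1 FPKM in one group only and so had to differ. The receptor *Epha4* measured 6.21, 5.56 and 5.70 FPKM across WT against 21.8, 23.3 and 22.1 FPKM across KO (log2 change 1.93 with an SE of 0.057, adjusted p = 1.87e-05) and the ligand *Efnb1* fell from 2.04 to 0.374 FPKM (log2 change −2.18). Integrin and laminin chains had 6 of 16 higher and 4 lower (median 0.11), collagens 2 of 6 higher, the basement membrane pair *Col4a1* and *Col4a2*, and 1 lower, *Col18a1* (log2 changes 0.77, 0.91 and −1.06, median 0.10). Keratins had 1 of 6 higher, *Krt8*, and 1 lower, *Krt19* (log2 changes 0.87 and −0.72, median 0.0027), and with any 1 library left out 1 to 2 higher and 1 lower.

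Many genes of later lineages were under 1 FPKM in both groups. Of 40 neural genes, 19 stayed under 1 FPKM in all 6 libraries. Of the 20 neural members 11 were lower and 7 higher (median −0.42), the list summed to 321 to 331 FPKM per WT library against 311 to 342 FPKM per KO library, and *Dcx* was listed at 0. Among these members, 4 reached 1 FPKM in one group only and so had to differ. *Nes* and *Sox21* fell beside *Gap43* and *Pax6*, and *Stmn2* and *Stmn3* rose (log2 changes −0.88, −1.54, 0.72 and 1.41). Endoderm genes had 4 of 12 members higher and 3 lower (median −0.052, sums of 255 to 265 FPKM per WT library against 253 to 263 FPKM per KO library), with *Gata6*, *Sox17* and *Foxa2* under 0.2 FPKM on average in both groups. Trophoblast genes had 5 of 12 higher and 3 lower (median 0.043, sums of 92.6 to 94.1 FPKM per WT library against 89.3 to 95.4 FPKM per KO library), with any 1 library left out 3 to 5 higher and 2 to 3 lower, and *Tfap2c* fell from 18.1 to 7.91 FPKM (log2 change −1.18 with an SE of 0.055, adjusted p = 6.05e-05). Mesoderm genes had 2 members of 32, of which *Mesp2* rose from 1.68 to 2.79 FPKM (log2 change 0.70, median of the list 0.43), the list summed to 8.73 to 10.1 FPKM per WT library against 13.4 to 14.2 FPKM per KO library, and of its 18 tested genes below 1 FPKM 6 were higher and 0 lower. The shares over all tested genes below 1 FPKM are not given here, so whether these counts exceed them was not tested. Fibroblast and feeder markers summed to 85.3 to 86.6 FPKM per WT library against 64.3 to 70.2 FPKM per KO library, with 1 of 6 members higher and 3 lower (median −0.41, in TPM 1 higher and 1 lower) and *Postn*, *Lum* and *S100a4* at 0. The part of these cell types in the results was not tested.

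Germ cell genes, many of which ESCs express, had 6 of 26 members higher and 9 lower (median −0.059, and with any 1 library left out 4 to 6 higher and 8 to 9 lower). *Prdm1*, the factor that starts the germ line, measured 4.41, 4.51 and 4.84 FPKM across WT against 1.04, 1.13 and 1.05 FPKM across KO (log2 change −1.998 with an SE of 0.088, adjusted p = 5.31e-05), *Hormad1*, a protein of meiotic chromosome axes, fell from 8.36 to 2.73 FPKM (log2 change −1.59), and *Mael*, a protein of the piRNA pathway, rose from 7.19 to 15.5 FPKM (log2 change 1.101). Platr noncoding RNAs had 3 of 19 higher and 4 lower (median −0.17, in TPM 3 higher and 2 lower, and with any 1 library left out 3 to 5 higher and 3 to 5 lower). Of 5 kallikrein and Spink members, *Klk1* rose, *Spink1* fell and 3 did not pass the test (median −0.22, and with any 1 library left out 1 to 2 higher and 1 lower). *Klk1* reached 1 FPKM in KO only and *Spink1* in WT only, so both had to differ. Zinc finger genes named Zfp had 23 of 279 higher and 35 lower (median −0.0078, in TPM 13 higher and 12 lower, and with any 1 library left out 16 to 21 higher and 22 to 33 lower), a share below that of all members in both directions.

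**Figure D5:**
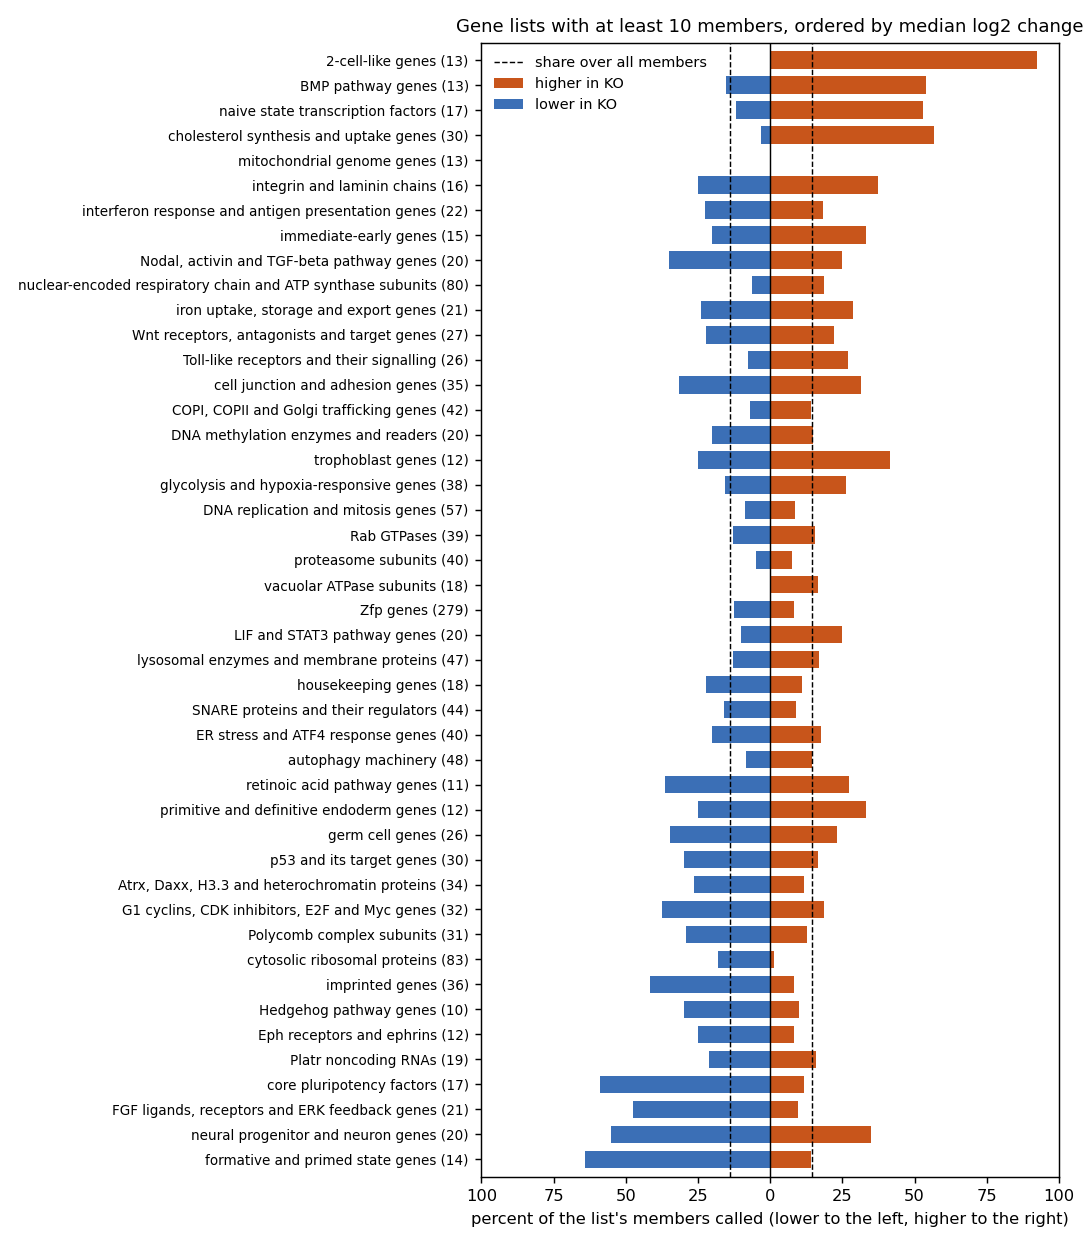
Percent of each list's members called higher (right, orange) or lower (left, blue) in KO, for lists with at least 10 members (number in brackets), ordered by median log2 change, with dashed lines at the shares over all members (14.5% and 13.9%). The 2-cell-like, BMP, naive and cholesterol lists stand at the top and the formative, neural, FGF and core lists at the bottom. Of the 13 2-cell-like members, 8 reached 1 FPKM in KO only and so had to lie above WT.

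By gene type, 1615 of 10492 protein-coding members were higher and 1550 lower, and of 454 long noncoding RNAs 53 and 59. Among 58 unprocessed pseudogenes, which are duplicated copies, 15 were higher and 4 lower. Among the 3080 members of the lowest level (mean of 0.611 to 2.63 FPKM) 147 were higher and 101 lower by at least 2-fold, but 304 of these members reached 1 FPKM in one group only and so had passed the filter through that group, and without them the counts were 53 and 32. Among the 3080 members of the next level (up to 6.59 FPKM) they were 87 and 47, or 82 and 43 without such members, and among the 3080 of the highest level (17.5 FPKM and above) 19 and 16. In the latter the calls at any fold numbered 452 higher (14.7%) and 521 lower (16.9%), where 14.5% and 13.9% of all members were called.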

How the data were processed

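Poly(A) RNA of 12 libraries was sequenced, and the 6 undifferentiated ones were compared. The authors aligned reads to mm10 with HISAT2 2.0.5, counted fragments per gene with featureCounts 1.5.0-p3 and deposited FPKM values. The annotation release is not given in the sources used here. DESeq2, named in the submitters' processing notes, was not run here. FPKM times gene length gave whole multiples of 1 fragment, which gave the depth. Values were tested as log2(FPKM + 0.1) with limma 3.58.1 (trend) in R 4.3.3 on genes that reached 0.1 FPKM in 3 or more of the 6 libraries, with Benjamini-Hochberg adjustment, and the fit was tested on simulated data. In these data 27 date-like gene names were restored by gene ID, and 55144 IDs matched GENCODE vM21.

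Named were *Snap29*, *Atrx*, the 20 largest rises and falls with no overlap between groups among genes with a full symbol, up to 6 members per list by adjusted p, the most abundant members, members a sentence turns on, and the chromosome 12 run, chosen after its values were seen. Some list members are counted but not reported by name here. Members and lists were chosen with earlier results of these data known. Alternatives were other added constants, filters, scalings (median-ratio, TPM, quantile), voom on recovered fragments, all 4 groups in 1 fit, a replicate block and leaving out each library.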

Additional observations from a re-analysis of the deposited data

Results flagged for a closer look

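The KO effect of 25 of the 40 largest changes differed between undifferentiated cells and cells differentiated for 14 days, tested as the difference of both effects in 1 limma fit over all 12 libraries (adjusted p under 0.05, where 1633 of 22913 genes or 7.13% passed). The genes were chosen for their change in undifferentiated cells, so this difference is not independent of the choice. Values below are the effect at day 14 minus the effect at day 0 on the log2 scale. Among the rises, the difference was −3.54 for *Grin2c*, −2.97 for *Bglap3*, −2.90 for *Irak3*, −2.81 for *Islr2*, −2.61 for *Sema7a*, −2.44 for *Cd200*, −2.26 for *Tlr2*, −2.06 for *Slc11a1*, −1.86 for *St8sia6*, −1.70 for *Rgs20*, −1.68 for *Catip*, −1.49 for *Bmp4* and −1.48 for *Nuggc*. The immune genes *Tlr2*, *Slc11a1* and *Irak3* were still called higher at day 14, with log2 changes of 0.95, 1.05 and 0.80. Among the falls, the difference was 5.63 for *Actc1*, 3.62 for *H19*, 3.24 for *Sema3e*, 3.00 for *Mup6*, 2.81 for *Lefty1*, 2.58 for *Gap43*, 2.02 for *Pkdcc*, 1.95 for *Car4*, 1.91 for *Pax6*, 1.54 for *Magohb*, 1.32 for *Ccnd2* and 1.11 for *Snap29*. With the replicate block *Bglap3*, *Lefty1* and *Ccnd2* lost the call (adjusted p = 0.0925, 0.0589 and 0.0686 by limma), and with 1 instead of 0.1 added *Bglap3*, *Cd200*, *Pkdcc* and *Snap29* did (adjusted p = 0.118, 0.0685, 0.0508 and 0.108). At day 14 *H19* averaged 2013 FPKM in WT against 1801 FPKM in KO, and *Actc1* was higher in KO (mean of 78.3 FPKM, WT 24.2 FPKM). *Snap29* was lower in KO at both days, with means at day 14 of 9.06 FPKM for WT against 2.02 FPKM for KO. Over the 40 genes, 33 had the same sign at both days, 14 of 20 rises were called higher and 8 of 20 falls called lower at day 14. The matching shares over all genes are not given here, so whether these counts exceed them was not tested.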

How the results depend on the processing

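Counts of members called depended on several choices. With 1 instead of 0.1 added to FPKM, 151 members were at least 2-fold higher and 97 lower, and leaving out members that reached 1 FPKM in one group only, a choice made after seeing the data, gave 191 and 111. Fitting all 4 groups together gave 993 higher and 891 lower at any fold, where the spread of the day 14 libraries enters the test. In that fit 5 cholesterol, 7 2-cell-like, 4 naive, 3 G1, 0 formative and 0 core pluripotency members were higher, and 3 core, 5 formative and 6 G1 members lower. In TPM 472 were lower, and 11 cholesterol, 4 BMP and 3 Toll-like members higher. The high *Gm23935* value in WT replicate 3 moves TPM, as described above, and how far it accounts for these counts was not tested. With 1 library left out, 269 to 297 members were higher and 170 to 199 lower by at least 2-fold, and 1236 to 1436 higher and 1161 to 1638 lower at any fold. The highest chromosome median was 0.0317 after quantile normalization. Same-numbered WT and KO libraries correlated in their deviations from the group means at −0.052, −0.012 and −0.063. With means of 3 libraries these values cannot exclude that replicate numbers pair the samples. With the replicate block 286 members were higher and 182 lower by at least 2-fold, and 1263 and 1144 at any fold. The call of every one of the 40 largest changes was kept in all alternatives in which it was tested. Depth limits single low genes: *Snap29* in KO rested on 25 to 40 fragments per library, and *Atrx* on 50 to 68. Of 176 called genes named in the text, 26 lost their call in TPM, 27 with all 4 groups in 1 fit, 10 with the replicate block, 5 with no filter on low values and 1 with 0.01 added, and none changed direction.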
